A study of Mus musculus with 12 samples.

Results

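The 4 Hox clusters of the mouse genome, HoxA, HoxB, HoxC and HoxD, hold 39 of the 21755 protein-coding genes that GENCODE M21 places on the autosomes and chromosome X. They were taken by gene symbol and position, with no use of the measured values. The regions run from 500 kb before the first Hox gene of a cluster to 500 kb after the last, 4495 of 2633767 bins of 1 kb. Replication fork direction was measured over them by OK-seq, which sequences Okazaki fragments, in mouse naive embryonic stem cells (ESCs) and in the epiblast-like cells (EpiLCs) made from them. Naive ESCs were kept in LIF and 2i, and EpiLCs were obtained after both were withdrawn. The control was the KMT2C KO line, so KMT2C was absent from the control too. KMT2C/D dKO cells came from KMT2C KO cells with a conditional KMT2D allele, which Cre-ER deletes upon 4-hydroxytamoxifen. KMT2C/D dCD cells carry both proteins without catalytic activity and descend from a different ESC line, so that the line and the genotype cannot be told apart in any comparison with the dCD. The 12 samples were deposited as 6 tracks, one per state and genotype, in each of which the authors summed 2 replicates.

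Hox genes encode homeodomain transcription factors that give cells their position along the body axis. Within a cluster they lie in the order of the body levels they pattern, from group 1 genes for the anterior hindbrain to group 13 genes for the posterior end, limb tips and genital tubercle. In ESCs the clusters are largely silent and are a textbook site of bivalent chromatin, marked by both Polycomb and Trithorax group proteins. KMT2C and KMT2D are the main methyltransferases for H3K4me1, a mark of enhancers.

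HoxA lies on mm10 chromosome 6 from 52155590 to 52260880, with 11 genes on the minus strand and Hoxa13 at its right end. HoxB lies on chromosome 11 from 96194316 to 96368256, with 10 genes on the plus strand from Hoxb13 to Hoxb1. HoxC occupies 102921103 to 103036852 of chromosome 15 and HoxD 74668310 to 74765142 of chromosome 2, each with 9 genes on the plus strand, from Hoxc13 to Hoxc4 and from Hoxd13 to Hoxd1. The group 13 end is therefore on the right in HoxA and on the left in the other clusters. The clusters span 98 to 175 bins of 1 kb. They held 20.9 to 29.9 CpG dinucleotides per kb, against 8.34 over the genome, and 13.4 to 24.6% of their bases were repeat-masked, against 34.3%.

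The density of CpG is visible in the promoters of the genes to which the results return. These are the 250 bases before Hoxd10 and Hoxd9, the gene nearest to the steepest rise of HoxD and the one with the highest strand bias there, of Hoxb8 and Hoxb4, which lie in the windows of HoxB that differed between states, and of Hoxa13, the gene of HoxA with the highest strand bias. The sequences are those of RefSeq on GRCm38.p6, read 5′ to 3′ in the direction of the gene up to the RefSeq start, with each CpG in capitals. In the promoter table used, 22 of the 39 Hox genes had an entry.
Hoxd10, plus strand, chr2:74691641-74691890: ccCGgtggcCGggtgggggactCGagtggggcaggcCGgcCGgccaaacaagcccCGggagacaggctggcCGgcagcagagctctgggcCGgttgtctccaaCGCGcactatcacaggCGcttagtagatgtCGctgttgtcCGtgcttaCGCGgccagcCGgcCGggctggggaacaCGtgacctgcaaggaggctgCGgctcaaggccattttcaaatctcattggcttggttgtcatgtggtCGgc
Hoxd9, plus strand, chr2:74697513-74697762: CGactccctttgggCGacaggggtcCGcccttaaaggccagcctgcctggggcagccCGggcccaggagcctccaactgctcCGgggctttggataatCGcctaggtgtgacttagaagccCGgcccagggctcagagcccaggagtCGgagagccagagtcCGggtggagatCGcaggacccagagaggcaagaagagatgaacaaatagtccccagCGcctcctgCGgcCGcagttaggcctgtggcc
Hoxb8, plus strand, chr11:96281655-96281904: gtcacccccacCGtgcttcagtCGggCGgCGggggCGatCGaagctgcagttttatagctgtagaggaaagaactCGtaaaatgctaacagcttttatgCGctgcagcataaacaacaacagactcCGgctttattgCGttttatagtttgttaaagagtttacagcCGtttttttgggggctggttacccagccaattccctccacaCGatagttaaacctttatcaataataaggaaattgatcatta
Hoxb4, plus strand, chr11:96318017-96318266: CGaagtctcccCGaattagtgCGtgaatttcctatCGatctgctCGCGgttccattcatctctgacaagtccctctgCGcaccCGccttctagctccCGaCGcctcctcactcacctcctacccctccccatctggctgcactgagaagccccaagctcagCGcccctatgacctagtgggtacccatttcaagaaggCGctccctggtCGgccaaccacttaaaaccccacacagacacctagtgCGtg
Hoxa13, minus strand, chr6:52260881-52261130: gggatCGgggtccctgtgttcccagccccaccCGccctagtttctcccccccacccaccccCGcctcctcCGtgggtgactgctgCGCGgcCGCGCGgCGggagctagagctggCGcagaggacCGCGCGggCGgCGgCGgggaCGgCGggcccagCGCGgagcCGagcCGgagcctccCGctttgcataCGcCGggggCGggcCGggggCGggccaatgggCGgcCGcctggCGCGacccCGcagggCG
Hoxa13 held 35 CpG in this stretch, a number that 2.97% of all 32851 promoters of the same length reached, and Hoxd10 held 20 (17.9%). Hoxb4 held 14 (29.4%), Hoxd9 13 (31.5%) and Hoxb8 12 (33.5%), where the median of all promoters was 6.

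The measure throughout was the Crick percentage, C/(W+C), of the Watson (W) and Crick (C) reads. Forks that move from left to right give Crick reads, so a value above 50 shows mostly rightward forks. A rise from left to right across a site shows that more forks started than merged there, and a fall shows the opposite. Depth was 3655095 to 4409068 reads in the naive libraries and 11407678 to 13601460 in the EpiLC libraries, or on average 34.5 to 41.7 and 108 to 129 reads per 25 kb. As the replicates are summed, the spread between them is unknown. Brackets give 95% intervals of counting error alone, by Wilson's method for a percentage and Newcombe's for a difference, and no p-value is given. Reads carry no molecular identifiers and are not independent molecules, so true errors are wider. Each comparison is between libraries. A difference was called where its interval did not include 0.

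The Crick percentage rose from left to right across all 4 clusters, in both states and in all 3 genotypes. The 50 kb left of HoxA, HoxC and HoxD had less than 50% Crick reads in every library. At HoxA, however, the intervals of the naive control, 47.1% (38.4 to 56.0), and the naive dCD, 48.8% (38.3 to 59.4), included 50. The 50 kb before Hoxb13 had 50.5 to 66.4% Crick reads, and only the naive dCD, at 66.4% (57.25 to 74.4), had an interval above 50. In the naive control, 21.7% of reads in the 50 kb to the left of Hoxd13 were Crick reads, against 75% in the 50 kb to the right of Hoxd1, a step of 53.3 percentage points (40.9 to 63.1). The step of HoxD was 52.1 (38.3 to 63.0) in the naive dKO and 49.5 (34.8 to 61.1) in the naive dCD. In EpiLCs the control had 42.1 (34.6 to 48.9), the dKO 34.5 (27.1 to 41.4) and the dCD 44.6 (37.9 to 50.7). With 50 kb outside each end, and with 100 kb, HoxD had the largest step of the 4 clusters in each of the 6 libraries. With 25 kb it did so in 4, as in the EpiLC control HoxD had 39.8 and both HoxA and HoxC 40.8, and in the EpiLC dKO HoxD and HoxA had 35.8 and 35.9.

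The step of HoxA was 16.7 (4.03 to 28.6), 38.7 (24.2 to 51.0) and 28.0 (14.3 to 40.6) in the naive control, dKO and dCD, and 33.3, 28.6 and 35.2 in the EpiLC libraries in the same order. The naive control stood lowest at HoxA. The step of HoxC was 33.0, 15.3 (2.10 to 27.6) and 23.5 in the naive libraries and 29.0, 22.7 and 30.1 in the EpiLC libraries, with the naive dKO lowest. The step of HoxB was 19.3, 24.7 and 15.7 in the naive libraries and 12.9, 18.8 and 21.1 in the EpiLC libraries. With 100 kb outside each end, the steps of HoxC were 13.5, 3.59 and 13.98 in the naive libraries and 17.1, 10.2 and 18.1 in the EpiLC libraries, and the step of the naive dKO was called neither there nor with 25 kb, at 11.2. The order of the smaller steps changed with this length. HoxB had the smallest step of the 4 clusters in 4 of the 6 libraries with 50 kb, in 5 with 25 kb and in 2 with 100 kb, where HoxC had it in 4.

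**Figure D1:**
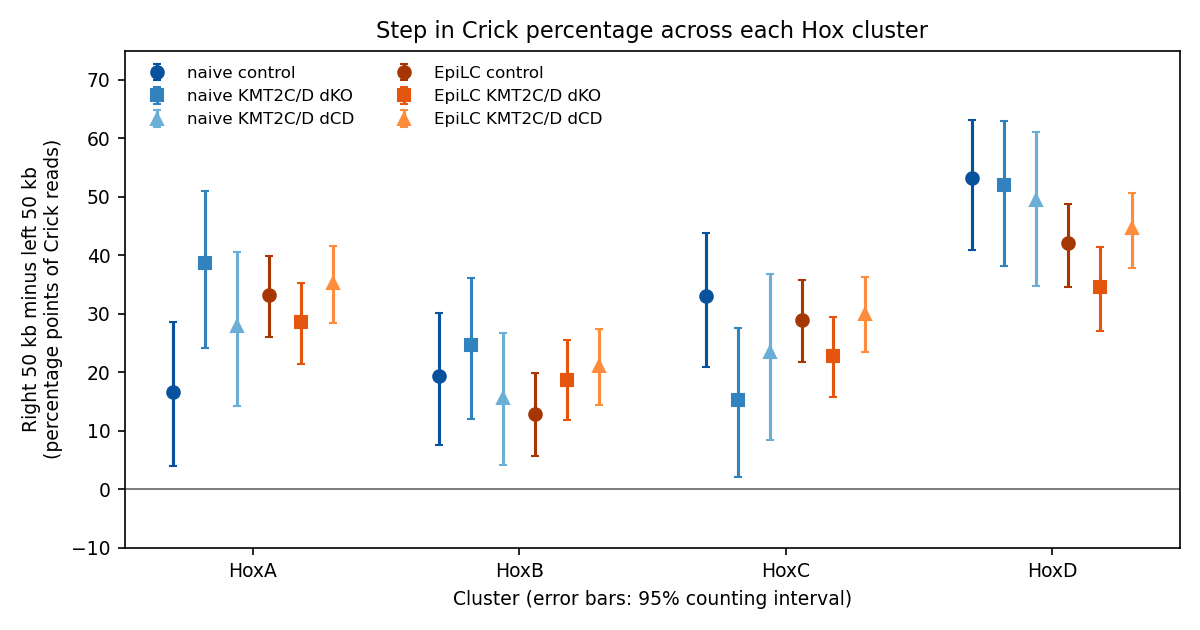
Step in Crick percentage across each cluster, as the 50 kb right of the last gene minus the 50 kb left of the first gene, in percentage points on the vertical axis. Each point is 1 library and each bar its 95% counting interval, and all 24 points lie above 0, from 12.9 at HoxB in the EpiLC control to 53.3 at HoxD in the naive control.

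With 50 kb outside each end, all 24 intervals lay above 0. Over the genome, cut into intervals of 125 kb, close to the mean length of the clusters, and measured the same way, the interval of the step lay above 0 in 18.8% of places in the naive control, 17.9% in the naive dKO and 19.7% in the naive dCD. It did so in 21.1%, 22.9% and 24.1% in the EpiLC control, dKO and dCD, and in all 6 libraries at once in 8.46% of 19824 places, where the 4 clusters all passed. A step as large as that of HoxD was found in 0.115% to 1.64% of the genome's intervals, depending on the library. For HoxA this share ranged from 0.846% in the EpiLC control to 16.5% in the naive control, for HoxC from 1.86% to 18.2%, and for HoxB from 8.58% to 20.05%. With 50 kb outside each end, the steps of HoxD thus stood further out among those of the genome than the steps of HoxB in every library.

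The sides of the clusters differed in base composition. The Crick percentage of a bin rose with the excess of T over A on the reference strand, and this excess was -3.00% of bases in the 50 kb left of HoxA, -1.61% left of HoxD, 3.31% right of HoxD and 2.30% right of HoxB. Once this fitted dependence was subtracted, all 24 steps stayed positive, between 10.3 and 42.5 points, and 23 intervals stayed above 0. The exception was HoxA in the naive control, at 10.4 (-2.18 to 22.5).

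The position of the rise differed between clusters. For each region, the largest rise between neighbouring stretches of 50 kb was found in one state, with the genotypes summed, and measured in the other. At HoxD it fell inside the cluster whichever state was used to find it, at 74686000 from the naive and 74688000 from the EpiLC reads, between the starts of Hoxd11 and Hoxd10 and 3.92 to 5.92 kb from that of Hoxd10. The rise found in naive cells measured 25.1 (17.4 to 32.4), 16.8 (9.71 to 23.6) and 28.2 (21.3 to 34.8) points in the EpiLC control, dKO and dCD. The rise found in EpiLCs measured 37.2 (25.5 to 47.5), 34.7 (21.1 to 46.4) and 30.0 (15.7 to 42.7) in the naive libraries. In windows of 25 kb, the naive control went from 19.7% at Hoxd13 to 43.2% over Hoxd12 to Hoxd9, 68.8% over Hoxd8 to Hoxd4, 61.7% in the next window, which holds no Hox start, and 70.8% at Hoxd1. The EpiLC control went through 34.4%, 45.1%, 58.6%, 53.2% and 70.2% over the same windows.

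In the other regions the largest rise lay outside the Hox genes. At HoxB it lay 184 kb left of Hoxb13 from the naive reads and 173 kb left of it from the EpiLC reads, 4.06 kb from the start of Igf2bp1, which encodes an RNA-binding protein, and 3.55 kb from that of Gip, which encodes an incretin hormone. It measured 27.7, 23.7 and 19.2 points in the EpiLC control, dKO and dCD, and 22.4, 19.8 and 39.3 in the naive libraries, with all 6 intervals above 0. At HoxC the largest rise lay 232 to 243 kb right of the start of Hoxc4 and 3.60 to 7.40 kb from that of Nfe2, a transcription factor gene of the erythroid lineage. It measured 11.02, 23.8 and 8.91 points in the EpiLC control, dKO and dCD and 17.8, 11.8 and 29.2 in the naive libraries. The largest fall of the HoxC region lay 99.1 kb left of Hoxc13 from the naive and 88.1 kb from the EpiLC reads, and reached -44.6 (-56.4 to -30.2) in the naive dCD. In all 6 libraries the interval of the fall lay below 0, and HoxC thus lay next to a zone of net merging in both states. At HoxA the states gave different places. The naive reads put the largest rise 7.45 kb from the start of Skap2, an adaptor protein gene left of the cluster, where the EpiLC libraries measured 6.94 (-0.624 to 14.4) in the control, 8.84 in the dKO and 13.1 in the dCD. The EpiLC reads put it 423 kb right of Hoxa13, where no naive library had an interval above 0.

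**Figure D2:**
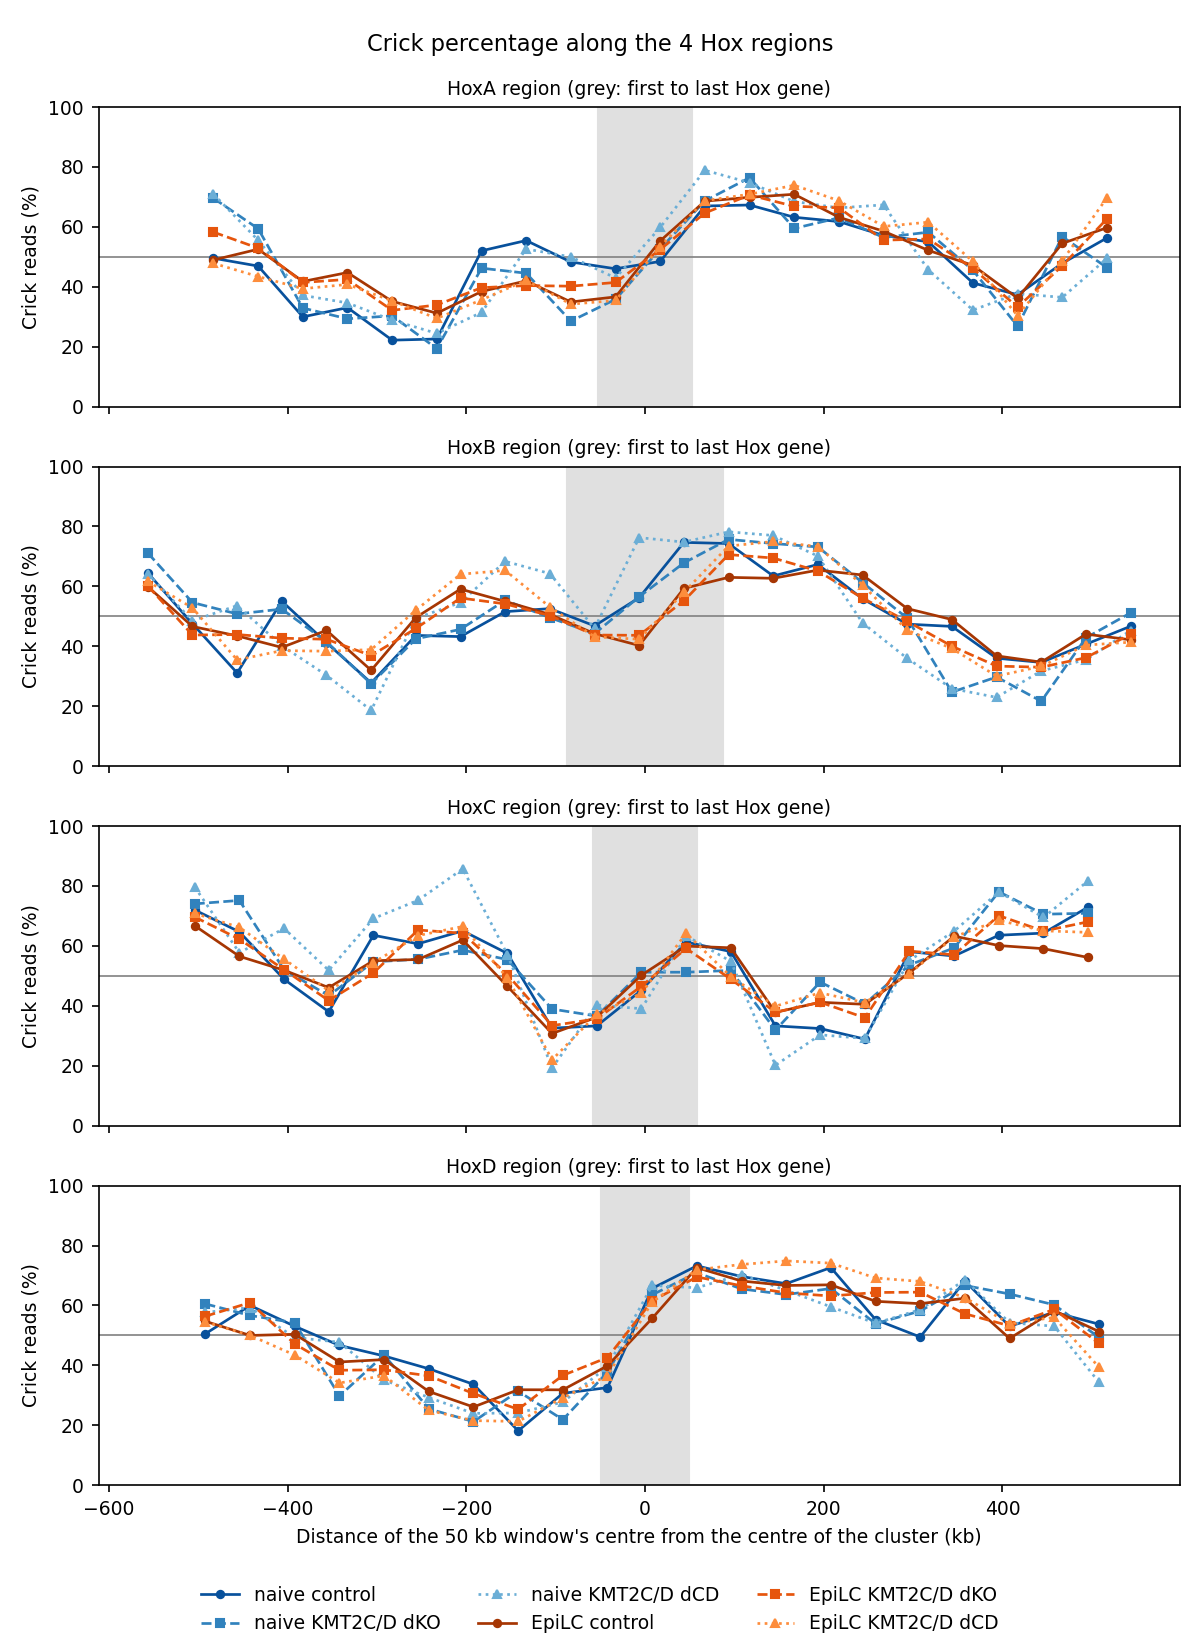
Crick percentage in windows of 50 kb along the 4 Hox regions, against the distance from the centre of the cluster in kb, with the cluster shaded and 1 line per library. All 6 lines of HoxD cross 50% inside the cluster, in the naive control from 32.6% to 65.7%, while in HoxB the naive lines stand at 56.3 to 76.3% and the EpiLC lines at 40.3 to 43.7% in the window of Hoxb9 to Hoxb6.

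The lines of a region resembled each other. Over the 86 windows of 50 kb of the 4 regions, Pearson's r between EpiLC and naive was 0.835 in the control, 0.879 in the dKO and 0.812 in the dCD, against 0.773, 0.828 and 0.838 over all windows of the genome. HoxD had the highest values of the 4 regions, at 0.903, 0.902 and 0.916 over 21 windows. With the T minus A dependence subtracted, HoxD had 0.804, 0.827 and 0.841 and was the highest in no genotype, below HoxC in the control (0.832) and the dCD (0.852) and below HoxB in the dKO (0.843). Windows share libraries, neighbours and base composition, and the values are a description.

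Inside the clusters, HoxB had a lower Crick percentage in EpiLCs than in naive cells in all 3 genotypes. The Crick percentage of HoxB was 61.8% (57.3 to 66.2) in the naive control, 58.0% (53.2 to 62.7) in the naive dKO and 66.5% (61.5 to 71.1) in the naive dCD. In EpiLCs it was 49.8% (47.0 to 52.6), 49.9% (47.3 to 52.5) and 51.2% (48.6 to 53.8). The naive and EpiLC values did not overlap, though the lower bound of the naive dKO fell within the interval of the EpiLC dCD. The difference was -12 points (-17.2 to -6.68) in the control, -8.14 (-13.4 to -2.70) in the dKO and -15.3 (-20.6 to -9.64) in the dCD. Among the 4 clusters, 1 was called in the control, 1 in the dKO and 2 in the dCD, and HoxB alone in all 3. Of intervals of 125 kb over the genome, 21.6%, 17.0% and 29.5% were called in these comparisons, and 3.30% were called in the same direction in all 3. HoxB held more reads than such an interval, 453 in the naive control against a median of 216, and a difference of a given size is called more often with more reads. Of intervals of 250 kb, with a median of 433 reads in that library, 25.9%, 21.4% and 36.6% were called, and 5.81% in the same direction in all 3. With every library thinned to the depth of the smallest, the dKO difference at HoxB was -6.32 and was not called.

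HoxA had 48.7%, 47.7% and 53.6% in the naive control, dKO and dCD and 48.5%, 48.0% and 46.2% in the EpiLC libraries, of which the dCD difference of -7.36 (-14.1 to -0.544) was called. It was lost with the libraries thinned to the smallest, at -6.76 (-15.2 to 1.85). HoxC lay between 46.2 and 49.1% in naive cells and between 47.0 and 50.9% in EpiLCs. HoxD lay above 50% in every library, between 57.1 and 60.7% in naive cells and between 54.6 and 56.7% in EpiLCs. Neither HoxC nor HoxD gave a called difference. In all, 4 of 12 state differences were called, 3 of them at HoxB.

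**Figure D3:**
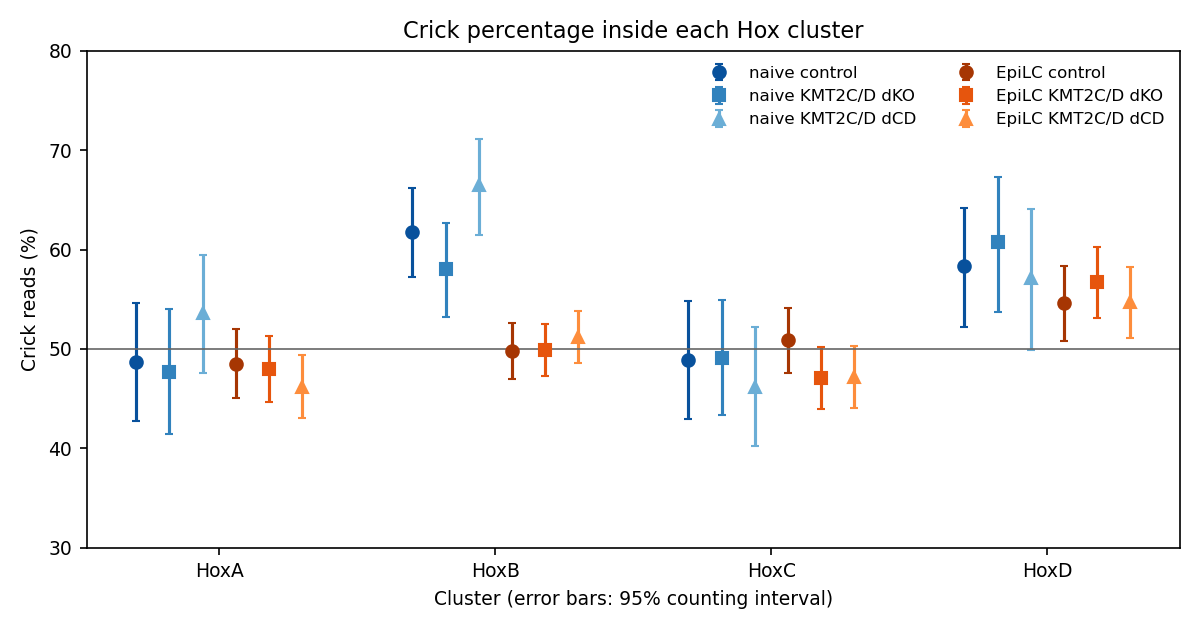
Crick percentage between the first and the last gene of each cluster, with 1 point per library, its 95% counting interval as a bar and a line at 50%. The vertical axis starts at 30%. At HoxB the naive points lie between 58.0 and 66.5% and the EpiLC points between 49.8 and 51.2%.

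For a description of where the reads of HoxB differed, each cluster was divided into 3 parts of equal length, a division drawn after values had been seen. The left part of HoxB, which holds Hoxb13 and the long stretch free of Hox genes after it, had 45.7 to 50.8% Crick reads in naive cells and 44.4 to 45.0% in EpiLCs. The middle part, with the starts of Hoxb9, Hoxb8, Hoxb7, Hoxb6 and Hoxb5, had 63.7%, 59.6% and 75.2% in the naive control, dKO and dCD and 43.7%, 46.4% and 44.8% in the EpiLC libraries. The differences were -20.1 (-28.3 to -11.2), -13.3 (-21.9 to -4.17) and -30.4 (-38.2 to -21.3). In the right part, with Hoxb4, Hoxb3, Hoxb2 and Hoxb1, they were -11.1 (-19.1 to -2.35), -11.4 (-19.9 to -1.90) and -8.41 (-17.0 to 1.29). Of the 12 parts of the 4 clusters, 1 was called in all 3 genotypes, this middle part. Among the windows of 50 kb of the genome, 0.928% were called in the same direction in all 3, and since the division followed the values, the count of parts is a description.

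Windows of 25 kb show the same reads in finer steps. In the window left of that of Hoxb9, no state difference was called, with 39.2%, 46.5% and 41.3% in the naive control, dKO and dCD and 38.3%, 43.8% and 33.3% in the EpiLC libraries. In the window of Hoxb9 the naive values were 53.8%, 52.5% and 78.6% and the EpiLC values 38.5%, 42.2% and 34.6%. In that of Hoxb8, Hoxb7 and Hoxb6 the naive values were 58.7%, 60.3% and 74.5% and the EpiLC values 42.2%, 45.2% and 49.8%. In that of Hoxb5, Hoxb4 and Hoxb3 they were 75%, 65.6% and 78.7% against 56.0%, 50% and 54.8%. By value alone, the naive libraries were above 50% from Hoxb9 on, and the EpiLC control and dCD from the window of Hoxb5 on. The EpiLC dKO stood at 50% in the window of Hoxb5. Several of these values lay close to 50%, as 53.8% and 52.5% in the naive control and dKO at Hoxb9. The EpiLC dCD likewise had 49.8% at Hoxb8 to Hoxb6, so the window in which a library crosses 50% is uncertain. In the window of Hoxb2 and Hoxb1 the naive libraries had 72.2%, 74.2% and 71.4%, the EpiLC dKO and dCD 68.0% and 73.8%, and the EpiLC control 57.9%. The promoters of Hoxb8 and Hoxb4 printed above lie in the windows of Hoxb8 to Hoxb6 and of Hoxb5 to Hoxb3.

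**Figure D4:**
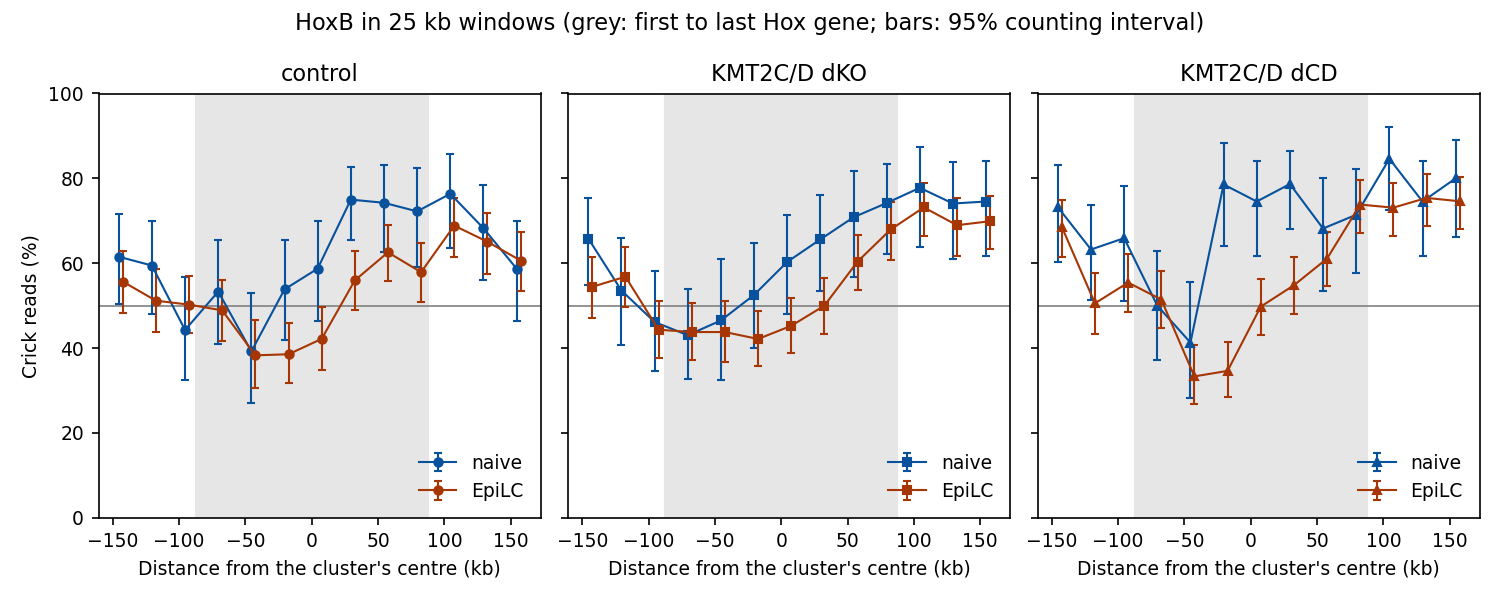
Crick percentage of HoxB in windows of 25 kb, against the distance from the centre of the cluster in kb, with naive and EpiLC libraries of 1 genotype in each panel and 95% counting intervals as bars. In all 3 panels the naive points stand above the EpiLC points at the centre of the cluster, where the control has 58.7% and 42.2%, and at the right edge the EpiLC dCD, at 73.8%, has reached the naive dCD, at 71.4%.

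Over the 4 regions, 19 of 176 windows of 25 kb (10.8%) were called between EpiLC and naive in the control, 17 (9.66%) in the dKO and 32 (18.2%) in the dCD, against 11.3%, 8.81% and 13.1% of all windows of the genome. The shares in the control and the dKO were near those of the genome at this width. In windows of 50 kb the shares were 19.8%, 17.4% and 27.9% of 86 windows, against 15.2%, 11.5% and 18.8% of the genome's. Called in the same direction in all 3 genotypes were 2 of the 176 windows (1.14%), against 0.303% of the genome's, and both were the HoxB windows of Hoxb8, Hoxb7 and Hoxb6 and of Hoxb5, Hoxb4 and Hoxb3, lower in EpiLCs. The comparisons share no library. Other windows inside the clusters were called in 1 or 2 genotypes, that of Hoxb9 in the control and the dCD. In the control, the window of Hoxd13 stood at 34.4% in EpiLCs against 19.7% in naive cells. In the dKO, the window with the GENCODE starts of Hoxc11, Hoxc10 and Hoxc5 stood at 39.4% against 54.7%. The last window of HoxC stood at 64.0% against 40% there. In GENCODE the Hoxc5 gene starts at 102967443, next to Hoxc10 at 102966796, and ends at 103017429, right of Hoxc6. In the dCD, the window of Hoxc9, Hoxc8 and Hoxc6 stood at 52.2% against 38.2%.

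In the 50 kb left of HoxA the naive control had 47.1% Crick reads (38.4 to 56.0), the naive dCD 48.8% (38.3 to 59.4) and the naive dKO 28.7%. The EpiLC control, dKO and dCD had 35.8%, 38.7% and 32.9%. The naive control and dCD thus had the highest values, but their intervals overlapped those of the naive dKO and of the EpiLC control and dKO. The step of HoxA was accordingly larger in EpiLCs than in naive cells in the control, by 16.6 points (2.67 to 30.9), and larger in the naive dKO than in the naive control, by 22.1 (3.29 to 39.7). With 25 kb outside each end neither was called, at 11.1 (-6.54 to 30.1) and 10.7 (-13.3 to 33.5). Right of Hoxa13 the 6 libraries lay between 63.8 and 76.8%.

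At full depth, no cluster as a whole gave a called difference in Crick percentage between a mutant and the control of the same state. With the libraries thinned to the smallest, HoxC was called in the EpiLC dKO, at -8.92 (-17.0 to -0.628). Of the parts of equal length, the middle of HoxB was called in the naive dCD, at 11.4 (0.943 to 21.4), and HoxB widened by 25 kb on each side was called there as well, at 7.09. HoxB itself gave 4.67 (-1.94 to 11.2) in the naive dCD. After division by the spread of the Crick percentage over the genome it gave 0.809 (-4.98 to 6.58). The 16 differences ranged from -3.86 points, at HoxC in the EpiLC dKO, to 4.90, at HoxA in the naive dCD, and 8 of them were positive. The intervals were wide in naive cells, as at HoxD in the dKO (2.41, -6.69 to 11.4), and narrower in EpiLCs, as at HoxB in the dKO (0.0970, -3.69 to 3.88). Over the genome, 10.8% of intervals of 125 kb were called for the naive dKO, 22.1% for the naive dCD, 14.0% for the EpiLC dKO and 24.3% for the EpiLC dCD.

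Steps gave 2 called differences among 16 between mutant and control, both in the naive dKO. They were the larger step of HoxA given above and a smaller one of HoxC, by -17.8 points (-34.8 to -0.557). The genome's share of called steps was 7.80% for the naive dKO, 10.8% for the naive dCD, 8.87% for the EpiLC dKO and 11.5% for the EpiLC dCD. Between EpiLC and naive, 2 of 12 steps were called, that of HoxA in the control and that of HoxD in the dKO, at -17.6 (-30.7 to -2.12), against 14.0% of the genome's intervals in the control, 10.4% in the dKO and 15.4% in the dCD. The EpiLC minus naive differences of the HoxD step were -11.2, -17.6 and -4.91 points in the control, dKO and dCD. The direction was not stable outside the dKO, since the dCD difference was 4.21 with 25 kb and 4.86 with 100 kb outside each end, and division by the genome-wide spread, chosen after seeing the data, turned the control to 1.28 and the dCD to 10.5. The spread of the Crick percentage over the whole genome was smaller in EpiLCs. The SD of the Crick percentage over windows of 50 kb, without its counting part, was 9.72 to 12.2 points in the EpiLC and 12.6 to 16.5 in the naive libraries. With 25 kb in place of 50 kb outside each end, 3 of these 4 calls were lost, both of HoxA as given above and that of HoxD, at -7.81. The step difference of HoxC was lost with 100 kb outside each end, at -9.91, and neither it nor that of HoxD was called with the T minus A dependence subtracted or with the libraries thinned. The change from naive cells to EpiLCs was also compared between each mutant and the control. Of these 16 differences of differences, over the 4 clusters, steps and Crick percentages, 1 was called, the step of HoxA in the dKO, at -26.8 (-46.9 to -5.56), and with 25 kb outside each end it was not, at -15.7 (-42 to 11.9). Over the genome, 7.81% of intervals of 125 kb were called for the step and 9.27% for the Crick percentage in the dKO, and 8.66% and 12.5% in the dCD, so that 1 of 16 is no more than the share of the genome.

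In windows of 25 kb, 13 of 176 (7.39%) were called between the naive dKO and control and 25 (14.2%) between the naive dCD and control, against 7.27% and 10.1% of the genome's. In EpiLCs 13 (7.39%) were called for the dKO and 29 (16.5%) for the dCD, against 8.01% and 11.1%. With the libraries thinned to the smallest, the EpiLC dCD share was 7.95%, against 7.05% of the genome's. In windows of 50 kb the shares were 9.30% for the naive dKO and 19.8% for the naive dCD, against 8.42% and 13.9%, and 12.8% for the EpiLC dKO and 24.4% for the EpiLC dCD, against 9.85% and 15.5%. Of the 24 windows inside the clusters, 6 were called in at least 1 comparison, with 7 calls in 96 comparisons (7.29%), a share near that of the genome. They are given as values. The window of Hoxb9 stood at 78.6% in the naive dCD against 53.8% in the naive control, that of Hoxb13 at 65.9% against 44.3%, and that of Hoxa9, Hoxa10 and Hoxa11 at 61.5% against 42.0%. The window of Hoxb2 and Hoxb1 stood higher in both EpiLC mutants, at 68.0% and 73.8%, than in the EpiLC control, at 57.9%. That of Hoxa4 stood at 46.0% in the EpiLC dKO against 35.0% in the EpiLC control. The last window of HoxC begins right of the Hoxc4 start and holds the end of that gene. It stood at 40% in the naive dKO against 62.9% in the naive control.

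Single Hox genes were described by their strand bias. Strand bias, the Crick percentage of the 25 kb to the right of a transcription start site (TSS) minus that of the 25 kb to the left, had a median over the 39 Hox genes of 9.26, 5.33 and 6.58 points in the naive control, dKO and dCD. The median of all protein-coding TSSs was 6.40, 6.33 and 6.67. In EpiLCs the Hox medians were 6.85, 6.25 and 9.35, against 4.19, 4.64 and 4.84. The 3 kb around a Hox TSS held a median of 117 CpG, against 75 around all protein-coding TSSs, and the part of CpG content in the medians was not tested. The interval lay above 0 at 6, 6 and 4 of the 39 Hox TSSs in the naive control, dKO and dCD, against 20.2%, 18.1% and 19.8% of all TSSs. In EpiLCs it did so at 15, 9 and 20, against 21.3%, 25.2% and 26.9%. The stretches of neighbouring Hox genes overlap and share reads, so the genes are not replicates, and GENCODE starts Hoxd3 and Hoxd4 only 2 bases apart. The medians and counts depend on the width used. The Hox medians lay between 0.259 and 3.29 points with 10 kb and between 11.4 and 16.1 with 50 kb on each side. With 10 kb, the counts were 3, 4 and 2 in the naive control, dKO and dCD, against 11.4%, 9.43% and 10.2% of all TSSs, and 3, 3 and 1 in the EpiLC libraries, against 10.5%, 13.2% and 13.1%. With 50 kb, they were 18, 18 and 19 in the naive libraries, against 30.0%, 28.2% and 31.1%, and 35, 32 and 37 in the EpiLC libraries, against 33.0%, 37.3% and 39.5%. With the libraries thinned to the smallest, the EpiLC control and dCD had 2 each, against 10.02% and 12.2% of all TSSs.

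With 25 kb on each side, HoxD had the highest median strand bias of the 4 clusters in all 6 libraries. All 9 of its TSSs were positive in the 3 naive libraries, with medians of 17.3, 8.60 and 14.7 points, and in EpiLCs 7, 9 and 9 were positive, with medians of 11.9, 7.77 and 14.7. Hoxd9, which acts in limb and genital patterning, had the highest strand bias of the cluster in all libraries summed, 18.1 points. It measured 30.1 (13.8 to 44.3), 10.5 (-8.52 to 28.5) and 24.1 (4.72 to 40.9) in the naive control, dKO and dCD and 14.7 (3.87 to 25.1), 19.6 (9.67 to 28.9) and 15.8 (5.75 to 25.4) in the EpiLC libraries. All 6 values of Hoxd9, chosen as the highest in their sum, were positive, and the interval included 0 in the naive dKO. Hoxd13, which patterns digits, measured 13.8, 31.9 and 16.3 in the naive and 10.05, 7.77 and 4.60 in the EpiLC libraries. Hoxd1, the last gene on the right, ranged from 6.25 in the EpiLC dKO to 15.9 in the EpiLC control. Hoxd3 and Hoxd4 had the lowest value of HoxD in all libraries summed, 7.07, and with -2.27 in the EpiLC control the only negative one of the cluster.

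In HoxA, Hoxa13 had the highest summed strand bias, 10.5 points. Hoxa13, of the most posterior group, measured 23.8 (6.98 to 38.7) in the naive control and 12.2 (3.39 to 20.8) in the EpiLC dCD, and between 3.44 and 11.7 in the other libraries. Hoxa4 ranged from 3.27 to 11.9 and Hoxa9 from -2.24 to 15.1. The one TSS of the 39 with an interval below 0 in any library was Hoxa6, at -10.9 (-20.7 to -0.732) in the EpiLC dKO, where the EpiLC control had 10.8 and the EpiLC dCD 11.7.

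In HoxB, Hoxb6 was highest in all libraries summed, at 10.7, and Hoxb1 lowest, at -0.354. Hoxb6 measured 1.65, 4.62 and -1.02 in the naive control, dKO and dCD and 20.9 (10.5 to 30.6), 8.87 and 9.35 in the EpiLC libraries. Hoxb1 lay between -3.57 and 9.36, Hoxb4 between -3.34 and 6.07, Hoxb9 between 0.671 and 14.0 and Hoxb13 between -3.96 and 14.3. In HoxC, Hoxc9 was highest, at 11.7, and Hoxc11 lowest, at 2.28, with a range of -3.26 to 6.66. Hoxc9 measured 12.3 (2.31 to 21.9), 16.3 (6.90 to 25.3) and 17.4 (8.09 to 26.3) in the EpiLC control, dKO and dCD, and 9.62, -9.25 and 1.99 in the naive libraries. Hoxc12 had the largest value of all, 42.5 (24.9 to 56.4) in the naive dKO, with 13.8 and 14.1 in the naive control and dCD and 8.07 or less in EpiLCs. Hoxc13 ranged from 1.02 to 14.6 and Hoxc4 from -0.877 to 4.60.

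By paralog group, in all libraries summed, the group 4 genes had 6.97 at Hoxa4, 1.74 at Hoxb4, 2.79 at Hoxc4 and 7.07 at Hoxd4. The value of Hoxd4 is also that of Hoxd3, since their GENCODE starts lie in the same bin. The group 9 genes had 6.82 at Hoxa9, 6.12 at Hoxb9, 11.7 at Hoxc9 and 18.1 at Hoxd9. The group 13 genes had 10.5 at Hoxa13, 2.64 at Hoxb13, 5.91 at Hoxc13 and 10.5 at Hoxd13.

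**Figure D5:**
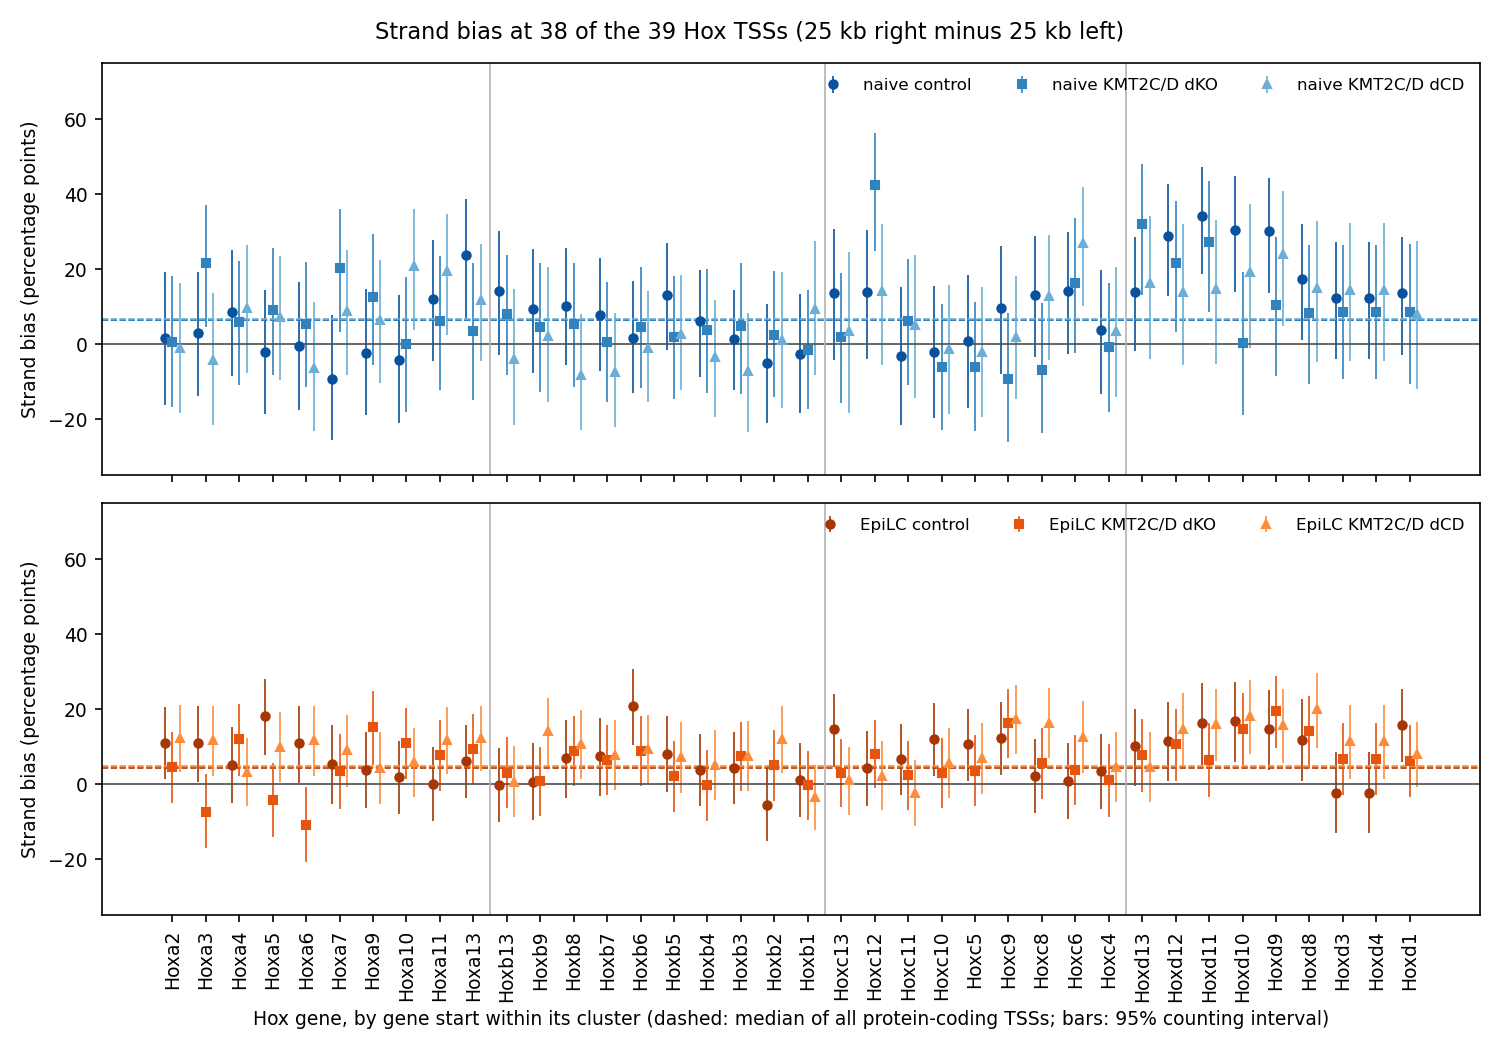
Strand bias at 38 of the 39 Hox TSSs in percentage points, with the genes in the order of their starts within a cluster, 1 point per library, 95% counting intervals as bars and the median of all protein-coding TSSs as dashed lines (naive libraries above, EpiLC libraries below). The Hoxd genes have the highest median of the 4 clusters in each library, with Hoxd11 at 34.2 in the naive control, and Hoxc12 in the naive dKO stands apart at 42.5.

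Outside the clusters, the nearest protein-coding genes differed among themselves. Skap2, 143 kb left of HoxA, had a strand bias of 30.9, 22.7 and 9.43 points in the naive and 12.9, 4.92 and 9.84 in the EpiLC control, dKO and dCD. Evx1, a homeobox gene 52.6 kb right of HoxA, ranged from -2.66 to 21.7, and Evx2, its paralog 8.75 kb left of HoxD, from 1.94 to 18.9. Ttll6, 28.9 kb left of HoxB, had 24.3, 17.7 and 23.7 in the naive libraries and 3.66, -1.91 and -6.80 in the EpiLC libraries. Skap1, 96.3 kb right of HoxB, ranged from -11.3 to 23.1. Calcoco1, 199 kb left of HoxC, was negative in all 6 libraries, from -14.5 to -2.86. Smug1, 116 kb right of HoxC, ranged from -10.7 to 24.98 and Mtx2, 60.7 kb right of HoxD, from -8.18 to 2.41. A list of 27 related genes held Pbx and Meis partners, Cdx factors, Polycomb subunits, the ParaHox genes Gsx1, Gsx2 and Pdx1, and Evx1 and Evx2 again. Of these, 10, 7 and 13 had an interval above 0 in the naive control, dKO and dCD, against 20.2%, 18.1% and 19.8% of all TSSs, with medians of 15.0, 13.9 and 18.7 points against 6.40, 6.33 and 6.67. In the EpiLC libraries 12, 11 and 14 did, against 21.3%, 25.2% and 26.9%, with medians of 6.02, 8.21 and 10.5 against 4.19, 4.64 and 4.84. Pbx4 had the one interval below 0, at -15.6 (-26.8 to -3.85) in the EpiLC control. The parts of CpG content and of expression in the values of this list were not tested.

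Reads were somewhat denser over the Hox clusters than over the genome. Read density was 1.28 to 1.74 times the median of all windows of the same library in the 24 values. The lowest was HoxD in the naive dKO, at 1.28 (1.11 to 1.47), and the highest HoxA in the naive dCD, at 1.74 (1.53 to 1.958). Against the 500 kb on both sides it was 0.930 to 1.42 times. HoxD held the fewest reads, from 182 in the naive dCD, where its Crick percentage had an interval of 49.9 to 64.1%, to 744 in the EpiLC dKO, where it was 53.1 to 60.2%.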

How the data were processed

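Okazaki fragments were sequenced as paired ends, and FastQC, Trim Galore, Bowtie2 and Picard, with the builds mm10 and hg19, are named in the submitters' processing notes, without versions or roles. The deposited tracks hold, as the authors made them, read density per base of each strand in 1 kb bins, with 2 replicates summed and no scaling for library size. Every value multiplied by 1000 was a whole number of reads. The 83 bins whose reads, summed over the libraries, exceeded 10 times the median, none of them in the Hox regions, were left out. Windows and sides with under 10 reads in a library were not compared. Crick percentages, Wilson and Newcombe intervals and the slope on T minus A were computed with Python 3.11.15, numpy 2.4.6, pandas 2.3.3 and scipy, figures with matplotlib 3.10.9, and the calculation was tested on simulated data. A TSS was the start of the GENCODE gene, and its own bin belonged to neither side.

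The Hox genes and all lists were chosen with earlier results of these data known. Named with values were the first and last gene of each cluster, groups 4, 9 and 13, the genes with the highest and lowest strand bias, the nearest neighbours and the genes of called windows, except 1 gene that is counted but not reported here. Alternatives were subtraction of the T minus A dependence, no bins left out, thinning, other widths, a moved grid, a minimum of 20 reads and scaling by the genome-wide spread.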

Additional observations from a re-analysis of the deposited data

Results flagged for a closer look

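The change of the HoxA step from naive cells to EpiLCs differed between the KMT2C/D dKO and the control. In the control the step went from 16.7 to 33.3 points and in the dKO from 38.7 to 28.6, and the dKO change minus the control change was -26.8 points, with a counting interval of -46.9 to -5.56 that leaves out 0. It was picked out because the interval of this difference of differences did not include 0, as held for 1 of 16 such differences, over 4 clusters, steps and Crick percentages, and both mutants. Over the genome it held in 7.81% to 12.5% of intervals of 125 kb, depending on the measure and the mutant, so that 1 of 16 is no more than the share of the genome. The value was -15.7 with 25 kb outside each end, where the interval of -42 to 11.9 includes 0, -19.97 with 100 kb, and between -31.9 and -26.7 under the other alternatives. Each side of the comparison is 1 pooled library.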

How the results depend on the processing

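No paired analysis was possible because the 2 replicates of each condition are summed in the deposited tracks, and leaving out a replicate was not possible for the same reason. Depth limits the naive libraries most, with 34.5 to 41.7 reads per 25 kb. Of 596 values under alternatives for 124 results, 532 kept their call or stayed within the counting error. Of these, 42 took the other sign, all of them differences that were not called as reported or under the alternative, so that their direction is not known. No called value changed sign. The cause of the changes below was not tested.

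With the T minus A dependence subtracted, 3 calls were lost, the step of HoxA in the naive control at 10.4, the naive dKO minus control step of HoxC at -16.5 and the EpiLC minus naive step of HoxD in the dKO at -13.98. With all libraries thinned to the smallest, these measured 12.6, -12 and -10.5 and were not called, nor were the EpiLC minus naive Crick percentages of HoxA in the dCD, at -6.76, and of HoxB in the dKO, at -6.32. The EpiLC dKO minus control Crick percentage of HoxC became called, at -8.92. Thinning left 7.95% of windows called between EpiLC dCD and control (7.05% of the genome's), and 2 Hox TSSs above 0 in the EpiLC control and 2 in the EpiLC dCD.

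With 25 kb outside each end, the HoxA step differences fell out, at 11.1 for the control between states, 10.7 for the naive dKO and -15.7 for the change in the dKO minus that in the control, as did the step of HoxC in the naive dKO, at 11.2, and the HoxD difference in the dKO, at -7.81. With 100 kb, the step of HoxC in the naive dKO was 3.59, its difference from control -9.91 and the HoxD difference -4.01, none called, while the EpiLC step differences from control of HoxB in the dKO, at 7.21, and of HoxD in the dCD, at 7.57, became called. Widening HoxB by 25 kb on each side made its naive dCD difference, 7.09, a call.

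Dividing by the genome-wide spread relative to the control made the HoxD step differences of the naive dCD, -15.3, and the EpiLC dKO, -10.5, calls. An alternative chosen after seeing the data divided EpiLC values by their spread relative to naive cells. It kept the HoxB calls at -12.1, -8.16 and -14.8, ended that of HoxD in the dKO, at -9.04, and added steps in the dCD of HoxA, 19.4, and HoxC, 16.9.

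In windows of 50 kb, 19.8%, 17.4% and 27.9% of windows were called between states in the control, dKO and dCD, and 12.8% between EpiLC dKO and control, against 15.2%, 11.5%, 18.8% and 9.85% of the genome's. With 10 kb on each side, 3 Hox TSSs lay above 0 in the naive control, 2 in the naive dCD, and 3, 3 and 1 in the EpiLC control, dKO and dCD. With 50 kb they were 18, 18 and 19 in the naive and 35, 32 and 37 in the EpiLC libraries. Of all TSSs, 9.43% to 13.2% lay above 0 with 10 kb and 28.2% to 39.5% with 50 kb. Read density relative to the flanks moved beyond its counting error in 21 of 24 cases.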
